A study of Mus musculus with 4 samples.

Results

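The 6 genes described here are Ahr, Arnt, Ahrr, Cyp1a1, Cyp1b1 and Tiparp, chosen by name as core genes of the aryl hydrocarbon receptor (AhR) pathway from the 41388 genes listed in the count tables, and all 6 were found. RNA-seq was run on Mnk3, an established murine line with the traits of group 3 innate lymphoid cells (ILC3), lymphocytes of barrier tissues known for making IL-22. The stimulated group was given IL-1b plus IL-23 (10 ng/ml of each) over roughly 16 h, and the control group received neither cytokine. Each group has 2 libraries of total RNA depleted of ribosomal RNA, all from this single line, and the labels do not say whether they came from separate cultures. P-values therefore measure how far apart these libraries lie, and that spread may be technical. Library 1 of a group is the one with rep1 in its title and library 2 the one without a number.

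AhR is a ligand-activated transcription factor of the bHLH-PAS family. It waits in the cytoplasm in a complex with HSP90 chaperones, binds planar aromatic ligands such as tryptophan metabolites, dietary indoles and dioxins, moves to the nucleus and pairs there with ARNT to bind DNA at sites with a GCGTG core. Its classical targets include the cytochrome P450 genes Cyp1a1 and Cyp1b1 and the feedback genes Ahrr and Tiparp. In the gut, ILC3 depend on AhR for their maintenance and for IL-22.

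The promoters of the target genes show where such cores lie, and 3 of them are printed because these genes stood at opposite ends of expression in these cells. They are the 250 bases before the RefSeq start, from GRCm38.p6, written 5′ to 3′ on the strand of the gene, with each GCGTG or its reverse complement CACGC in capitals. Cyp1b1 is at chr17:79715062-79715311 on the minus strand, Cyp1a1 at chr9:57697363-57697612 on the plus strand and Ahrr at chr13:74292332-74292581 on the minus strand.
Cyp1b1: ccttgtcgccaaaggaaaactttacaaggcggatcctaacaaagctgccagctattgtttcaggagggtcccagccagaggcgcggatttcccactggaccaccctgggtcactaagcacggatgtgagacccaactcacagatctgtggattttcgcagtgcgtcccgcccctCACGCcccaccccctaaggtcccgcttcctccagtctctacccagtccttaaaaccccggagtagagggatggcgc
Cyp1a1: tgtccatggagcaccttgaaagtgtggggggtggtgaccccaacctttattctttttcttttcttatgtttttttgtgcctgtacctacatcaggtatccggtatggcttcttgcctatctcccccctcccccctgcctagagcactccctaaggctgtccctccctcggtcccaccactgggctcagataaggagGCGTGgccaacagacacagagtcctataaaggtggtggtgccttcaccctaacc
Ahrr: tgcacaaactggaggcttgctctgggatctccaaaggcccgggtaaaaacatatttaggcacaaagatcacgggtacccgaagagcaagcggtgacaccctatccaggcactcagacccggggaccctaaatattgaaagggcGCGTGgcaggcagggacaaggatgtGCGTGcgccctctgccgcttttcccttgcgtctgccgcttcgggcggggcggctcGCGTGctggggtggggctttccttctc
Cyp1b1 and Cyp1a1 each hold 1 core, which starts 76 and 54 bases before the RefSeq start, while Ahrr holds 3. Promoters were found for 5 of the 6 genes, all but Ahr, and those of Tiparp and Arnt also hold 1 core each. Over 32851 RefSeq promoter windows of this length, 28.2% held the core on either strand, 8.63% held it at least 2 times and 2.77% at least 3 times. Among 12648 windows of genes tested here the share was 43.8%. The core was searched on both strands of these windows only. Sequence farther from the start, where other cores may lie, was not searched, and neither was any other motif. A match describes the letters only.

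Stimulated libraries held 26723058 and 23047723 summed gene counts, and control libraries 29078765 and 28516816. All 11 ILC3 marker genes examined were detected, and their summed level was 1998 and 2105 CPM (counts relative to library size, scaled by TMM) in stimulated libraries, against 4599 and 4588 CPM in controls. Among them Id2 went the other way, with 7847 and 7780 counts in stimulated libraries, against 6057 and 6686 in controls. Summed T cell markers were at 16.0 and 12.0 CPM in stimulated libraries, against 24.0 and 19.6 CPM in controls. Summed myeloid markers were at 2.22 and 9.37 CPM in stimulated libraries, against 0.962 and 2.12 CPM in controls. Of these Adgre1 had 44 and 187 counts in stimulated libraries, against 2 and 0 in controls, and Lyz2 had none in the 4 libraries. B cell, epithelial, erythroid and hepatocyte markers were at 1.63 CPM or less each. The part of these markers in the results was not tested. Summed endothelial and stromal markers were at 28.2 to 42.1 CPM, mostly Pecam1. Fewer cells with a transcript and less transcript per cell cannot be told apart in these bulk libraries.

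None of the 4 tested genes passed between stimulated and control cells, but the 6 genes behaved very differently. Ahr, Arnt and Tiparp were well expressed and had fitted changes near 0. Cyp1b1 was the most abundant of them in stimulated cells, at a fitted 4.99 times its control level, with controls that lay far apart. Ahrr and Cyp1a1 were nearly silent in all libraries. Of the 4 genes with enough counts to be tested, edgeR's quasi-likelihood test called 0 at an adjusted p under 0.05 (1 at an unadjusted p under 0.05), and DESeq2 and limma-voom called 1 each, Cyp1b1 in both. Over all 13838 genes tested, 35.8% were called by edgeR, 17.5% of the genes being higher and 18.3% lower.

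**Figure D1:**
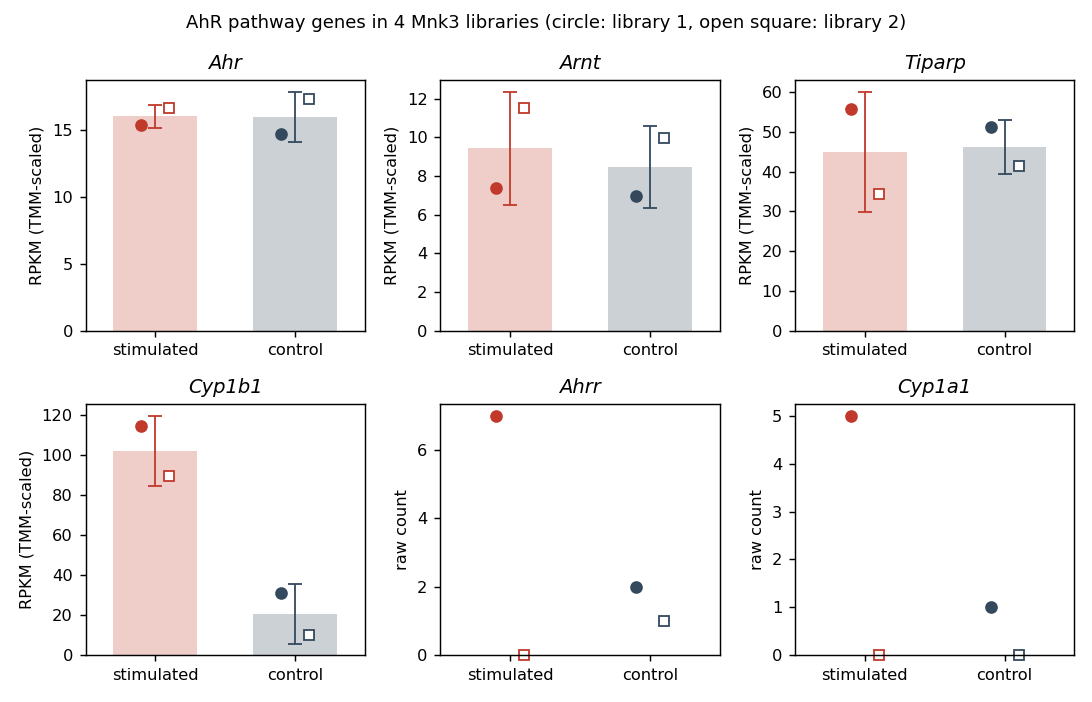
Level of each gene in the 4 libraries. Ahr, Arnt, Tiparp and Cyp1b1 are in RPKM scaled by TMM, with bars at the mean of 2 libraries and error bars of 1 SD; Ahrr and Cyp1a1 are raw counts. Cyp1b1 is at 114 and 89.5 RPKM in stimulated libraries and at 31.1 and 9.75 RPKM in controls, and the other 3 abundant genes overlap between groups.

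Ahr encodes the receptor and lies on chromosome 12 from 35497974 to 35535038 on the minus strand, in the coordinates of the count tables. Its level per length was 15.4 and 16.7 RPKM (CPM per kilobase of listed exon length) in stimulated libraries, against 14.7 and 17.3 RPKM in controls. The groups overlapped, and both stimulated values lay between the control values. The raw counts behind them were 2400 and 2344 in stimulated libraries and 2728 and 3128 in controls. The log2 fold change of stimulated over control was 0.0019 ± 0.15 (SE; edgeR adjusted p = 0.994), with a 95% interval from -0.34 to 0.35, or folds of 0.789 to 1.27. Changes within that unadjusted interval were not excluded by these libraries.

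Arnt, at 95434388 to 95497240 of chromosome 3 (plus strand), encodes the nuclear partner with which AhR binds DNA and which HIF proteins share. It had 7.37 and 11.5 RPKM in stimulated libraries, against 6.97 and 9.97 RPKM in controls. In both groups library 2 was the higher, by more than the distance between groups. The fitted log2 fold change was 0.16 ± 0.27 (edgeR adjusted p = 0.69), with a 95% interval from -0.50 to 0.81. The ratio of Ahr to Arnt per length was 2.09 and 1.45 in stimulated libraries, against 2.11 and 1.74 in controls, so Ahr was the more abundant in every library.

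Tiparp encodes a mono-ADP-ribosyltransferase, PARP7, that AhR induces and that represses AhR in turn. Its position is chromosome 3, 65528410 to 65555145, plus strand. It was at 55.7 and 34.3 RPKM in stimulated libraries, against 51.1 and 41.5 RPKM in controls, so the stimulated pair enclosed both controls. The log2 fold change was -0.04 ± 0.25 (edgeR adjusted p = 0.917), with a 95% interval from -0.64 to 0.56. The gap between the stimulated libraries was larger than that of 93.9% of tested genes, and the fitted value moved to -0.43 without stimulated 1 and 0.29 without stimulated 2. Tiparp shares 223 of its 3985 exonic bases with the antisense gene 4931440P22Rik, which had 249 to 461 counts per library. No source used here says whether counting took account of strand, so reads from the shared stretch cannot be told apart.

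Cyp1b1 encodes a P450 enzyme that oxidises polycyclic hydrocarbons and steroids and is itself able to break down AhR ligands. It lies on chromosome 17 from 79706953 to 79715041 on the minus strand, and no other listed gene overlaps it. Raw counts were 14788 and 10486 in stimulated libraries and 4799 and 1464 in controls. On the scale of length these are 114 and 89.5 RPKM in stimulated libraries, against 31.1 and 9.75 RPKM in controls. Both stimulated libraries lay above both controls, as was the case for 34.4% of all tested genes. Between single libraries the stimulated level was from 2.88 times (stimulated 2 over control 1) to 11.7 times (stimulated 1 over control 2) the control level.

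The change of Cyp1b1 did not pass, and its controls lay far apart. The log2 fold change was 2.32 ± 0.66 (edgeR adjusted p = 0.0729), with an unadjusted 95% interval from 0.40 to 4.24, or folds of 1.32 to 18.9. Control 1 had 3.18 times the Cyp1b1 level of control 2, while stimulated 1 had 1.27 times that of stimulated 2. The gap between controls, 1.66 on the log2 scale, was larger than in 99.4% of tested genes. Counting error was far smaller: the coefficient of variation over the controls was 73.8%, against 1.79% from counting alone. Changes this high or higher were fitted for 264 tested genes, of which 11 did not pass.

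**Figure D2:**
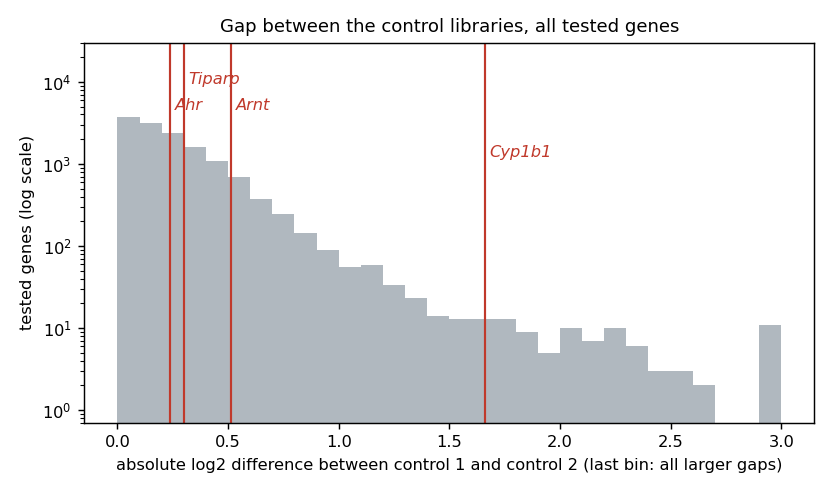
Absolute log2 difference between control 1 and control 2 for all 13838 tested genes, on a log count axis, with the 4 tested AhR pathway genes marked by lines. Cyp1b1 stands at 1.66, in the tail, and Ahr, Tiparp and Arnt at 0.24, 0.30 and 0.51.

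The direction of Cyp1b1 was the same in all 13 alternative analyses, and its call was not. It passed in 6 of them. The adjusted p was 0.00948 in DESeq2, 0.0124 in limma-voom, 0.0168 in edgeR without robust estimation and 0.0463 with total-count scaling. It was also 7.5e-06 in edgeR without control 1, with a change of 3.38, and 0.000288 without control 2, with a change of 1.71, fits that hold a single control and so no gap between controls. Without stimulated 1 and without stimulated 2, where both controls remain, the adjusted p was 0.424 and 0.355.

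**Figure D3:**
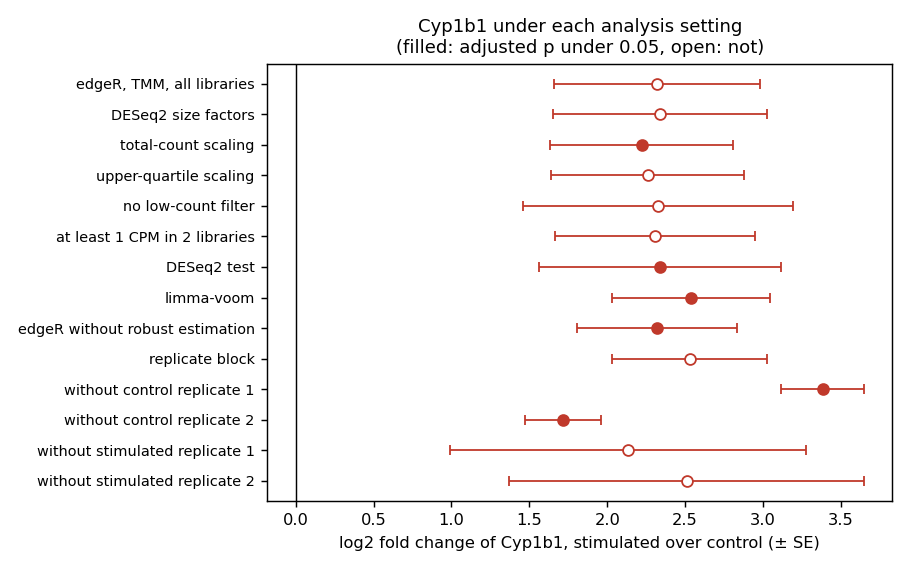
Log2 fold change of Cyp1b1, stimulated over control, in the edgeR fit with TMM scaling and in 13 alternatives, with bars of 1 SE; filled points passed an adjusted p of 0.05. All points lie above 0, from 1.71 to 3.38, and 6 alternatives passed.

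Cyp1a1, the other P450 of the pair and the usual indicator gene of AhR activity in liver and gut, was nearly absent. Its raw counts were 5 and 0 in stimulated libraries and 1 and 0 in controls, on chromosome 9 from 57697613 to 57703822, plus strand. Ahrr, which encodes a repressor that competes with AhR for ARNT, had 7 and 0 counts in stimulated libraries and 2 and 1 in controls, on chromosome 13 from 74211118 to 74292331, minus strand. Both genes fell below the filter on low counts. For Cyp1a1 the ratio of summed counts, scaled by TMM, was 6.18 with an exact 95% counting interval of 0.691 to 292, and for Ahrr it was 2.88 with an interval of 0.658 to 17.3. Both intervals include 1 and cover counting error only. In each gene the stimulated counts came from stimulated 1 alone, and at this depth no difference was detectable.

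The order of levels per length therefore differed between groups in the place of Cyp1b1. In stimulated libraries Cyp1b1 (mean 102 ± 17.4 RPKM, SD, n = 2) stood above Tiparp (45.0 ± 15.2), Ahr (16.0 ± 0.871) and Arnt (9.44 ± 2.92), and none of these neighbours overlapped. In controls Tiparp (46.3 ± 6.85 RPKM) came before Cyp1b1 (20.4 ± 15.1), Ahr (16.0 ± 1.87) and Arnt (8.47 ± 2.13). The control values of Cyp1b1 enclosed those of Ahr, and its lower value, 9.75 RPKM, lay below the higher value of Arnt. Relative to Ahr in the same library, Cyp1b1 was at 7.41 and 5.38 in stimulated libraries, against 2.11 and 0.563 in controls. Averaged over the 4 libraries, Cyp1b1 ranked above 92.0% of tested genes per length, Tiparp above 88.4%, Ahr above 67.0% and Arnt above 52.9%.

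The genes most like each tested gene over the 4 libraries were found by the Euclidean distance between log2 profiles centred on their means, among genes of similar abundance. The nearest to Cyp1b1 were Serpina3g, a serine protease inhibitor, Nfkbiz, the nuclear NF-kB cofactor IkB-zeta, and Furin, a proprotein convertase, at distances of 0.93, 0.94 and 0.98. These are loose matches, and for Ahr the distances were 0.0095 to 0.019 (Lonrf3, Sos2, Pigm). Serpina3g had 961 and 789 CPM in stimulated libraries, against 144 and 109 CPM in controls. Nfkbiz had 635 and 542 CPM in stimulated libraries, against 128 and 100.1 CPM in controls. Furin had 620 and 271 CPM in stimulated libraries, against 177 and 76.1 CPM in controls, and did not pass (edgeR adjusted p = 0.125). In each of these genes, as in Cyp1b1, library 1 was the higher of each group. The controls of Serpina3g and Nfkbiz lay closer together than those of Furin and Cyp1b1. The nearest to Arnt were Ezh2, Ehd4 and Mybl1, at 0.058 to 0.10, and the nearest to Tiparp were Lrp10, Sec24c and Tcf3, at 0.11 to 0.14.

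Around these genes, other parts of the AhR pathway changed in both directions. Of 55 other genes listed by role, 43 were tested, 11 rose, 13 fell and 19 did not pass. The share called was 55.8%, against 35.8% of all tested genes, and the median log2 change was -0.015, against -0.016 over all tested genes. The lists were written with earlier results of these data known.

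**Figure D4:**
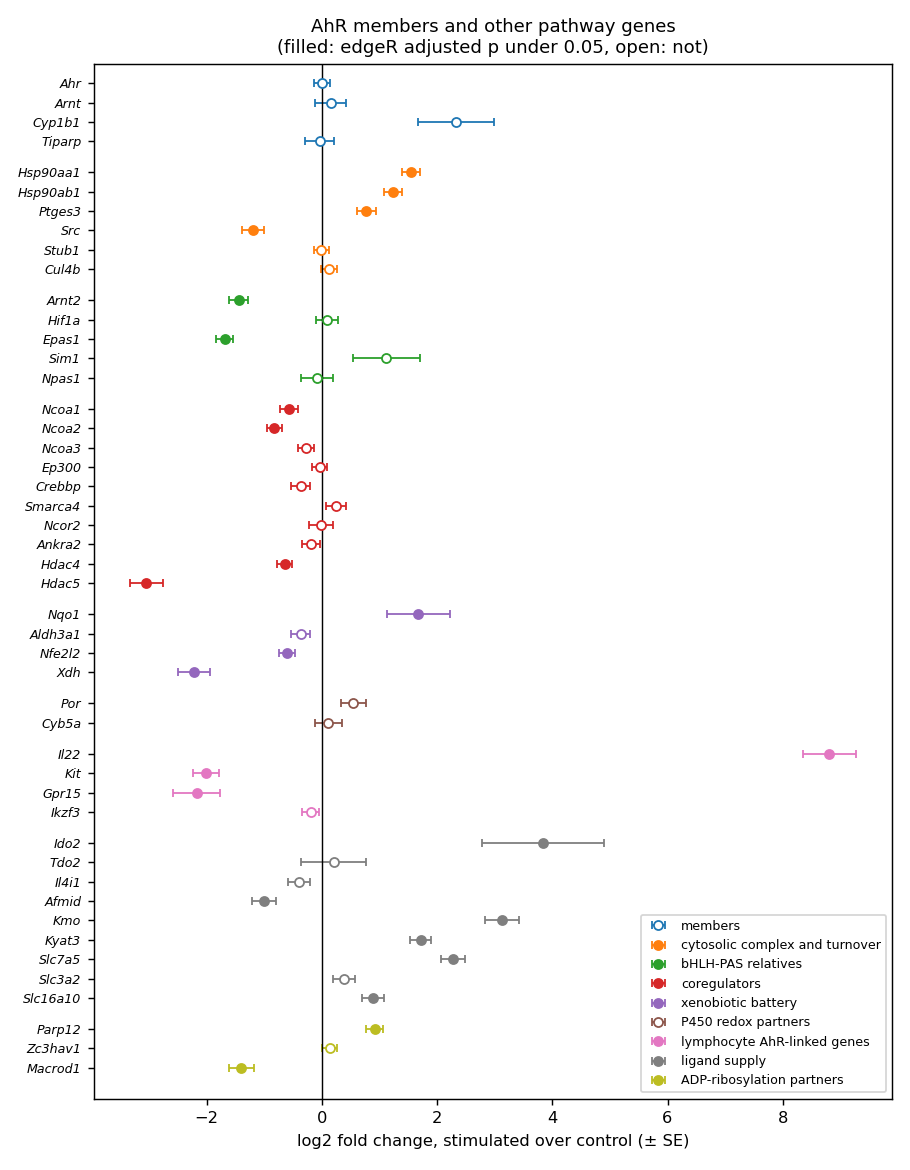
Log2 fold change, stimulated over control, of the 4 tested core genes and of 43 tested genes of the surrounding pathway, grouped by role, with bars of 1 SE; filled points passed an edgeR adjusted p of 0.05. The core genes are open points, and the other groups hold 11 higher and 13 lower filled points.

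The HSP90 chaperone genes, whose products hold AhR in the cytoplasm, rose. Hsp90ab1, which encodes the constitutive HSP90, was at 584 and 550 RPKM in stimulated libraries, against 253 and 228 RPKM in controls (log2 fold change 1.24 ± 0.16, edgeR adjusted p = 0.00185). Its inducible relative Hsp90aa1 rose by 1.55 ± 0.16 and the co-chaperone Ptges3, or p23, by 0.77 ± 0.17. Src, a kinase found in the complex, fell to 8.44 and 10.3 RPKM in stimulated libraries, against 18.2 and 24.6 RPKM in controls (-1.19 ± 0.19). Stub1, a ubiquitin ligase that acts on chaperone clients, had -0.02 ± 0.13 and did not pass. Of the 6 genes tested in this group, 3 rose, 1 fell and 2 did not pass. The share called was 66.7%, against 35.8% of all tested genes.

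Among relatives of the receptor, 2 of 5 tested bHLH-PAS genes fell and none rose. At 40.0% called this was near the 35.8% of all tested genes. Arnt2, which encodes another partner protein closely related to ARNT, fell to 10.6 and 13.5 RPKM in stimulated libraries, against 30.8 and 34.9 RPKM in controls (-1.45 ± 0.17, edgeR adjusted p = 0.00136). In every library of both groups Arnt2 was above Arnt, and in stimulated cells their means were 12.0 ± 2.08 and 9.44 ± 2.92 RPKM (SD, n = 2). Epas1, which encodes HIF-2alpha, fell to 3.98 and 4.47 RPKM in stimulated libraries, against 13.9 and 13.4 RPKM in controls (-1.69 ± 0.14). Hif1a had 0.09 ± 0.19 and did not pass. The other 4 of the 9 genes were below the filter.

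Of 10 tested coregulators of AhR and AHRR, 4 fell and none rose, or 40.0% called, a share near the 35.8% of all tested genes. Hdac5, a class IIa histone deacetylase recruited by AHRR, fell to 2.81 and 4.59 RPKM in stimulated libraries, against 26.4 and 34.8 RPKM in controls (-3.05 ± 0.28, edgeR adjusted p = 0.000918). Its relative Hdac4 changed by -0.64 ± 0.13, and the p160 coactivators Ncoa2 and Ncoa1 by -0.83 ± 0.13 and -0.57 ± 0.16. The call of Ncoa1 ended without control 2, stimulated 1 or stimulated 2 (adjusted p = 0.107, 0.18 and 0.0521), and that of Hdac4 without stimulated 1 (0.0533). Smarca4, the BRG1 remodeller, had 0.25 ± 0.18 and did not pass.

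The xenobiotic genes that AhR is known to control elsewhere did not move together. Of 8 listed, 4 were below the filter, among them Cyp1a2, Ugt1a6a and Gsta1 with no counts in the 4 libraries. Ugt1a6a shares exons with other Ugt1a genes, so reads could be lost there. Nqo1, a quinone reductase, had 32 and 13 counts in stimulated libraries and 9 and 8 in controls (1.68 ± 0.54, edgeR adjusted p = 0.0492), a call that ended in 8 of 12 alternatives, with adjusted p-values up to 0.363. Nfe2l2, which encodes NRF2, fell by 0.61 ± 0.14 on the log2 scale, and its call ended without control 2 (0.0577) or stimulated 2 (0.108). Xdh, xanthine dehydrogenase, fell to 0.388 and 0.554 RPKM in stimulated libraries, against 1.99 and 2.41 RPKM in controls (-2.22 ± 0.28). Aldh3a1, an aldehyde dehydrogenase, had -0.37 ± 0.17 and did not pass, except with a replicate block (edgeR adjusted p = 0.0128). Of the 4 xenobiotic genes tested, 1 rose, 2 fell and 1 did not pass. The share called was 75.0%, against 35.8% of all tested genes. Neither of the 2 tested P450 redox partners passed (0% called), Por at 0.55 ± 0.21 (edgeR adjusted p = 0.089) and Cyb5a at 0.11 ± 0.24. Por did pass in edgeR without the low-count filter (0.00468) and with a replicate block (1.91e-05). Without stimulated 2 its log2 fold change was 0.84. The fit without the filter gave Ahr, Arnt, Tiparp and Cyp1b1 SEs of 0.16, 0.16, 0.17 and 0.87. With the block these were 0.11, 0.11, 0.12 and 0.50, against 0.15, 0.27, 0.25 and 0.66 in the fit reported above. The block fit called 3986 genes higher and 4000 lower. Passes in these fits, also that of Aldh3a1, are weak evidence.

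Genes tied to AhR in lymphocytes also split. Il22 rose by 8.81 ± 0.46, to 1435 and 772 RPKM in stimulated libraries, against 2.9 and 2.0 RPKM in controls; part of its reads may be shared with its near copy Iltifb. Kit, a receptor gene that AhR is known to maintain in ILC3, fell by 2.01 ± 0.23 on the log2 scale. Gpr15, a homing receptor gene, had 7 and 11 counts in stimulated libraries and 52 and 50 in controls (-2.18 ± 0.41, edgeR adjusted p = 0.00716). Ikzf3 had -0.19 ± 0.15 and did not pass. Il10 and Entpd1 were below the filter. Of the 4 tested, 1 rose, 2 fell and 1 did not pass. The share called was thus 75.0%, against 35.8% of all tested genes.

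Genes of tryptophan breakdown, a source of AhR ligands, and of amino acid uptake rose in 5 of 9 tested cases. The share called in either direction was 66.7%, against 35.8% of all tested genes, in a list written with earlier results known. Slc7a5, a large neutral amino acid transporter that carries tryptophan and kynurenine, was at 33.2 and 47.6 RPKM in stimulated libraries, against 7.80 and 8.87 RPKM in controls (2.28 ± 0.21, edgeR adjusted p = 0.00064). Kmo, the kynurenine hydroxylase, was at 3.99 and 2.58 RPKM in stimulated libraries, against 0.400 and 0.347 RPKM in controls (3.13 ± 0.30). Kyat3, a kynurenine aminotransferase, rose by 1.71 ± 0.19 and the aromatic amino acid transporter Slc16a10 by 0.88 ± 0.19, whose call ended without control 1 (0.0517). Ido2, a dioxygenase of tryptophan, had 118 and 17 counts in stimulated libraries and 4 and 7 in controls (3.84 ± 1.06, edgeR adjusted p = 0.0446), a call that ended in 5 of 12 alternatives, with adjusted p-values up to 0.368. Afmid, the kynurenine formamidase, was the member that fell (-1.01 ± 0.21), and its call ended without control 1 (0.051). Slc3a2, the partner chain of Slc7a5, had 0.38 ± 0.19 and did not pass, except with a replicate block (edgeR adjusted p = 0.00325). Ido1, below the filter, had 7 and 4 counts in stimulated libraries and 0 in both controls, and it passed in edgeR without that filter (adjusted p = 0.00631). Kynu had no counts in the 4 libraries. The limits given above for the fits in which Por passed hold for the passes of Slc3a2 and Ido1.

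Of the ADP-ribosylation genes related to Tiparp, Parp12 rose and Macrod1 fell. With 3 tested, the share called was 66.7%, against 35.8% of all tested genes. Parp12, which encodes a close relative of PARP7 with CCCH zinc fingers, was at 19.9 and 17.4 RPKM in stimulated libraries, against 9.80 and 9.98 RPKM in controls (0.91 ± 0.14, edgeR adjusted p = 0.00368). Macrod1, which encodes an enzyme that removes ADP-ribose from proteins, was at 3.23 and 3.61 RPKM in stimulated libraries, against 9.48 and 8.55 RPKM in controls (-1.40 ± 0.22, edgeR adjusted p = 0.00372). Zc3hav1, the antiviral zinc finger protein of this family, had 0.13 ± 0.14 and did not pass.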

How the data were processed

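The labels' protocols name a Qiagen kit for total RNA and removal of ribosomal RNA. The submitters' processing notes list STAR, Subread and featureCounts without versions, and no source used here gives the build, annotation or strand setting. The authors deposited a raw whole-number count per gene. Their deposited CPM and RPKM follow from that count, library total and listed length (checked) and were not used further. GENCODE M21 (GRCm38) gave symbols for 40340 of 41388 identifiers.

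Groups were compared with edgeR 4.0.16 in R 4.3.3 (filterByExpr, TMM, robust quasi-likelihood test, treatment only), adjusted by Benjamini-Hochberg over 13838 genes with a threshold of 0.05, by code tested on simulated data. SE is the absolute change over the square root of F. CPM and RPKM printed are TMM-scaled. Gaps between libraries and profile distances use log2(CPM + 0.5). Alternatives were other scalings and filters, DESeq2 1.42.0, limma-voom (limma 3.58.1), no robust estimation, a replicate block and each library left out. Named genes were the 6 core genes, each listed pathway gene past the threshold, the most abundant per list that did not pass, and the 3 nearest profiles within a factor of 2 in mean CPM. Por and genes below the filter were named after their values were seen. All genes and lists were chosen with earlier results of these data known. A gene of the pathway lists is not reported here.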

Additional observations from a re-analysis of the deposited data

How the results depend on the processing

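Ahr, Arnt and Tiparp did not pass in any of their 39 alternative fits, and their signs were not fixed. Ahr changed by -0.088 with total-count scaling, -0.048 with upper-quartile scaling and -0.0069 with a filter of 1 CPM in 2 libraries. With single libraries left out, Ahr ranged from -0.11 to 0.13, Arnt from -0.17 to 0.44 and Tiparp from -0.43 to 0.29. Cyp1b1 stayed higher and passed at 2.22 with total-count scaling, 2.34 in DESeq2, 2.54 in limma-voom and 2.32 without robust estimation, and ranged from 1.71 to 3.38 with single libraries left out. Ahrr and Cyp1a1 ranged from 1.13 to 2.48 and from 1.65 to 3.58 where a ratio could be formed; leaving out stimulated 1 (both genes) or control 1 (Cyp1a1) gave none. Without the low-count filter their edgeR adjusted p-values were 0.524 and 0.397.

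Over all genes, 2417 were higher and 2533 lower, and with single libraries left out 1593 to 2001 and 1665 to 2035, the lowest without stimulated 1. The titles state no pairing. Same-numbered libraries deviated together (correlation 0.49 across 13838 genes, which are not independent). They also stand next to each other in the order of the deposited samples. Both are hints of pairing only. With a replicate block 3986 genes were higher and 4000 lower, and Cyp1b1 had 2.53 ± 0.50 (edgeR adjusted p = 0.0563), a fit with 1 residual degree of freedom. With total-count scaling the median change of all genes was -0.11 and 40.9% of calls were higher, against 48.8% with TMM. The number of other pathway genes called ranged from 8 to 12 higher and 11 to 12 lower with single libraries left out. With 2 libraries per group, changes of Ahr, Arnt and Tiparp inside their unadjusted intervals were not excluded.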
